A study of Mus musculus with 2 samples.

Results

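miR-219a and miR-338 are a pair of microRNA families best known from oligodendrocytes, and 5 mature arms of their hairpins were measured in the retina of newborn mice, out of 1358 mature miRNAs in all. The members were miR-219a-1-3p, miR-219a-5p, miR-219a-2-3p, miR-338-5p and miR-338-3p. They were picked by name because the arm that is not the usual one in oligodendrocytes held more counts here, so their counts and the ratios between their arms are given as a description, with no test. The series held 1 group, wild-type retina at postnatal day 0 from CD-1, an outbred stock of mice, as 2 small RNA libraries called replicate 1 and replicate 2. The labels give no other genotype, agent or comparison group, and do not say whether the libraries came from separate animals, litters or pools, and the spread between them may be only technical.

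A miRNA hairpin is cut into a short duplex with an arm from its 5′ side (5p) and an arm from its 3′ side (3p). As a rule, mainly one of these strands is kept in an Argonaute protein, where bases 2 to 8, the seed, direct it to target transcripts, while the other strand is lost. In the mouse brain, miR-219a and miR-338 rise as oligodendrocyte progenitors mature, and they lower regulators that hold progenitors back, among them Pdgfra and Sox6. There miR-219a-5p, miR-219a-2-3p and miR-338-3p are the arms usually described. Axons in the mouse retina normally carry no myelin.

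The 5 members are shown as the most frequent read of replicate 1, because the whole account rests on telling these arms apart. Reads are written 5′ to 3′ in DNA letters, as the deposited table has them, with the seed in capitals.
miR-219a-1-3p: aGAGTTGCgtctggacgtcccg
miR-219a-5p: tGATTGTCcaaacgcaattctcg
miR-219a-2-3p: aGAATTGTggctggacatctgt
miR-338-5p: aACAATATcctggtgctgagt
miR-338-3p: tCCAGCATcagtgattttgtt
No seed was shared within the set. Nor did any other of the 1152 listed miRNAs with a mature sequence in RefSeq carry one of these 5 seeds, and the same held for the most frequent reads of all listed miRNAs. Among these sequences the seed of each member was therefore found in that member alone. Less frequent reads of other miRNAs are not given and could not be checked. The sequence of miR-219a-2-3p, its position in Mir219a-2 and its seed were taken from the deposited read of replicate 1, not from RefSeq. By these reads the 3p arms of the miR-219a hairpins differed at 7 of 22 positions, 2 of them in the seed. Counted from 1 at the 5′ end, with the base of miR-219a-1-3p first, these were G4A, C8T, T10G, G17A, C20T, C21G and G22T. Such a distance separates their reads well, and none of the 5 members had a fractional count in either library, whereas 6.77% of the values in replicate 1 and 5.96% of those in replicate 2 were fractional over all miRNAs.

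The arms come from 3 hairpins, all on minus strands of GRCm38. Mir219a-1 lies on chromosome 17 (34024983 to 34025092) in an exon of the lincRNA Gm26940, 303 bp from Ring1, which encodes a Polycomb protein. Mir219a-2 lies on chromosome 2 (29845631 to 29845727), overlapped by no annotated gene other than an antisense miRNA, and 629 bp from Urm1. Mir338 lies on chromosome 11 (120014765 to 120014862) in an intron of Aatk, a kinase gene transcribed from the same strand. miR-219a-5p has the same sequence in Mir219a-1 and Mir219a-2, so its count cannot be assigned to either hairpin from the annotated bases alone. Each hairpin also has an annotated antisense miRNA on the opposite strand, namely miR-219c, miR-219b and miR-3065.

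**Figure D1:**
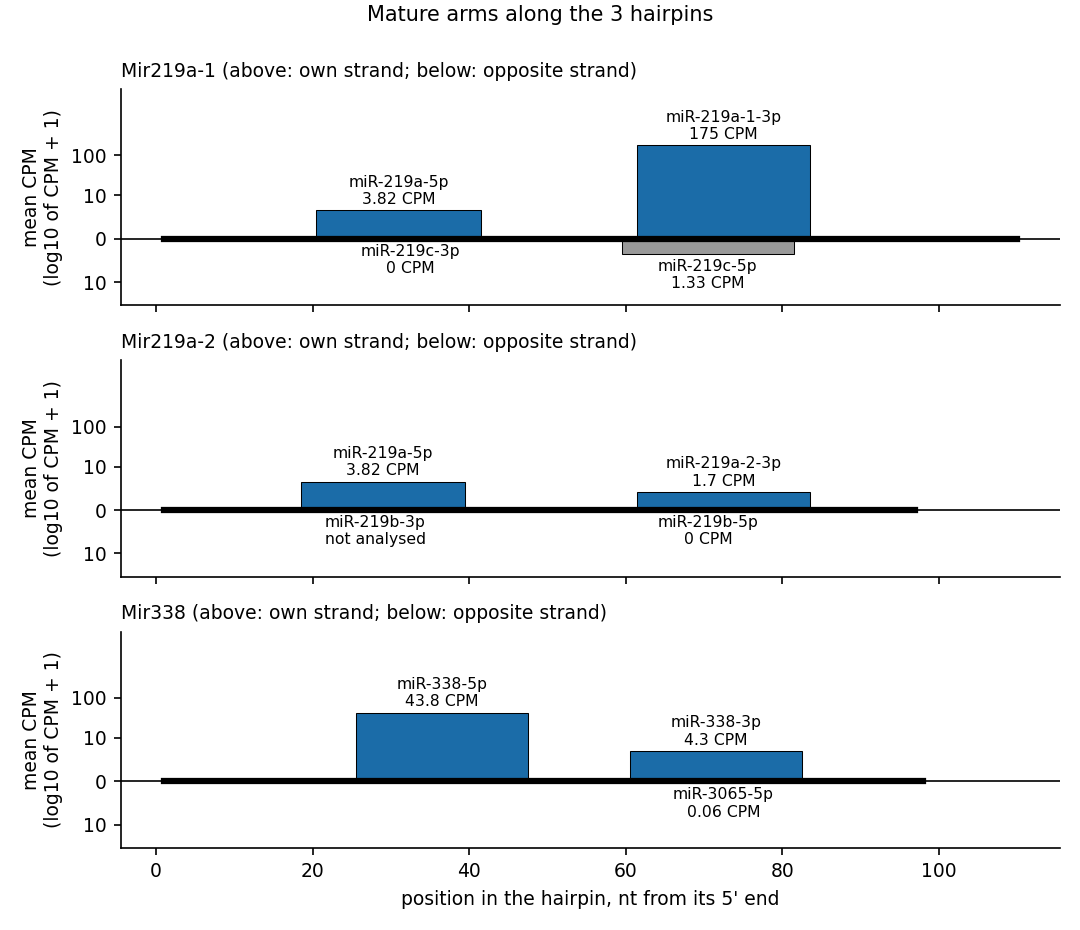
Mean level of each mature arm (height, mean CPM of the 2 libraries as log10 of CPM + 1) by its position in the hairpin (nt from the 5′ end), with arms of the hairpin's own strand above the line and of the opposite strand below. miR-219a-1-3p at 175 CPM and miR-338-5p at 43.8 CPM stand above every other arm drawn, and miR-219a-5p is drawn in both of its hairpins with its undivided level.

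Sequencing covered 8337902 counts in replicate 1 and 8118208 in replicate 2, and 924 of the 1358 miRNAs were detected in both libraries. CPM (counts per 1000000) here uses these totals. The retina label was checked on the sensory-organ cluster miR-183/96/182, which photoreceptors express strongly. Its members reached 110064 ± 10501 CPM (miR-182-5p), 65116 ± 3926 CPM (miR-183-5p) and 5964 ± 799 CPM (miR-96-5p; SD, n = 2 each).

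miR-219a-1-3p was the leading member, at similar CPM in both libraries by table totals. It had 1441 counts in replicate 1, or 173 CPM (exact binomial 95% interval 164 to 182), and 1442 counts in replicate 2, or 178 CPM (169 to 187). Its mean of 175 ± 3.39 CPM (SD, n = 2) placed it at rank 148 of 1358, and it made up 72.7% of the counts of the 5 members in replicate 1 and 80.8% in replicate 2. It pairs with miR-219a-5p in the duplex of Mir219a-1.

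The arms of miR-219a for which the family is known were far lower. miR-219a-5p, the conserved arm made from both hairpins, had 34 counts (4.08 CPM, 2.82 to 5.70) in replicate 1 and 29 counts (3.57 CPM, 2.39 to 5.13) in replicate 2. miR-219a-2-3p, the 3p arm abundant in myelinating tissue, had 17 counts (2.04 CPM, 1.19 to 3.26) in replicate 1 and 11 counts (1.35 CPM, 0.676 to 2.42) in replicate 2. Both arms were present in both libraries, at ranks 458 and 561, and each rested on few reads.

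miR-338-5p was the other member with a sizeable count, and here the libraries did not overlap. It had 447 counts in replicate 1 (53.6 CPM, 48.8 to 58.8) and 276 in replicate 2 (34.0 CPM, 30.1 to 38.3), a mean of 43.8 ± 13.9 CPM (SD, n = 2) at rank 236. Its partner miR-338-3p, the arm usually described in oligodendrocytes and neurons, had 44 counts in replicate 1 (5.28 CPM, 3.83 to 7.08) and 27 in replicate 2 (3.33 CPM, 2.19 to 4.84), at rank 450. Both arms of the hairpin were lower in replicate 2.

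The order of the levels was miR-219a-1-3p, miR-338-5p, miR-338-3p, miR-219a-5p and miR-219a-2-3p. miR-338-3p and miR-219a-5p could not be ranked, since their ranges over the libraries overlapped and replicate 2 held more counts of miR-219a-5p than of miR-338-3p. The other neighbours in the order did not overlap between libraries. For miR-219a-5p over miR-219a-2-3p the gap was only 2.00-fold in replicate 1 and 2.64-fold in replicate 2, and the counting intervals of these arms overlapped in each library. Together the 5 members held 238 CPM in replicate 1 and 219.9 CPM in replicate 2, of which the miR-219a arms held 179 CPM and 183 CPM, and the miR-338 arms 58.9 CPM and 37.3 CPM. Their median of 4.30 CPM stood beside a median of 1.47 CPM over the 1151 detected miRNAs. Since the libraries are from bulk tissue, fewer cells holding a miRNA and less of it per cell cannot be told apart.

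**Figure D2:**
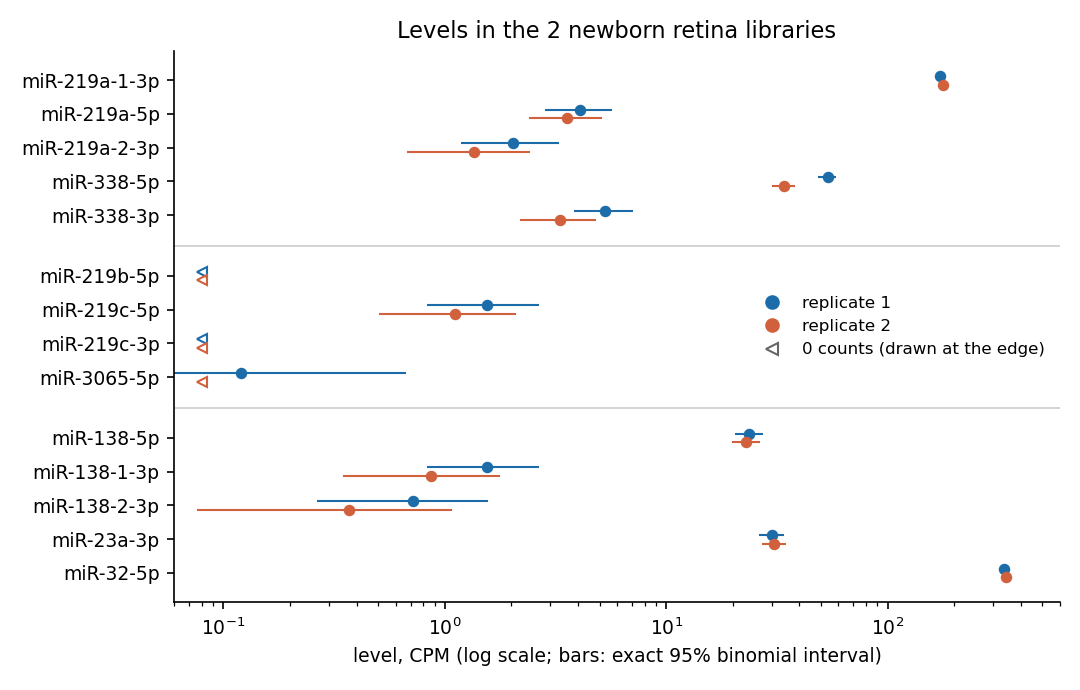
Level in CPM (log axis) of the 5 members, of their paralogous or antisense miRNAs and of other miRNAs tied to oligodendrocyte differentiation, in replicate 1 (blue) and replicate 2 (orange). Bars are exact 95% binomial intervals and open triangles mark 0 counts. The libraries overlap for each member except miR-338-5p, at 53.6 and 34.0 CPM.

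By level, the members stood among miRNAs of varied families. miR-219a-1-3p lay between miR-34c-5p (178 ± 9.90 CPM) and miR-369-5p (175 ± 42.2 CPM), and miR-338-5p between miR-467a-5p (44.1 ± 10.1 CPM) and miR-301b-3p (43.3 ± 8.04 CPM; SD, n = 2 each). The low members had neighbours at nearly equal counts. miR-338-3p lay between miR-3097-3p (4.31 CPM) and miR-7015-3p (4.25 CPM), miR-219a-5p between miR-1291 (3.89 CPM) and miR-6994-3p (3.77 CPM), and miR-219a-2-3p just under miR-466k (1.70 CPM), with the same counts as miR-377-3p. Likeness over 2 libraries in level alone carries little information, and no function is read from it.

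The miR-219a-1 hairpin gave mostly its 3p arm. With 0.5 added to each count, miR-219a-1-3p exceeded miR-219a-5p by 41.8-fold in replicate 1 and 48.9-fold in replicate 2 (log2 ratio 5.50 ± 0.16, SD, n = 2). These ratios set the 3p arm of Mir219a-1 against all reads of miR-219a-5p, whichever hairpin made them. The ratio within Mir219a-1 is therefore at least as large.

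The 5p reads carried a further sign of their origin. The most frequent miR-219a-5p read in both libraries ran 2 bases past the annotated 3′ end. Those bases, in capitals, are shown here beside the stretch of each hairpin that the read would cover, in DNA letters.
Most frequent read: tgattgtccaaacgcaattctCG
Mir219a-1: tgattgtccaaacgcaattctCG
Mir219a-2: tgattgtccaaacgcaattctTG
The read matched Mir219a-1 exactly and differed from Mir219a-2 by the single substitution C22T (position from 1 at the 5′ end, read base first). The table gives only the most frequent sequence, from 34 and 29 counts of this miRNA, so the share of 5p reads ending in this way is not known. A 3′ end with 2 added bases in both libraries was found in 34 of the 614 miRNAs (5.54%) whose most frequent read was the same in both.

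For Mir219a-2 only an incomplete ratio could be had. miR-219a-2-3p stood at 0.507 times miR-219a-5p in replicate 1 and 0.39 times in replicate 2 (log2 ratio -1.17 ± 0.27, SD, n = 2). With the 5p reads shared between hairpins, these values are lower limits for the 3p over the 5p arm of Mir219a-2, and they do not say which of its arms was higher.

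The comparison free of the shared arm is that of the 3p arms themselves. miR-219a-1-3p exceeded miR-219a-2-3p by 82.4-fold in replicate 1 and 125-fold in replicate 2 (log2 ratio 6.67 ± 0.43, SD, n = 2). Set beside the 20 families whose hairpins share an arm and differ in the other, with 10 or more counts in each library over their 2 highest hairpin-specific arms, miR-219a had the fourth-largest ratio, and the median log2 ratio of the 20 was 2.46. Above it stood miR-181a (6538 and 6822 counts for the higher arm, 1 and 3 for the lower), let-7a (758 and 508, with 1 and 0) and miR-92a (157 and 108, with 0 in both). The lower arm of these 3 families had at most 3 counts in a library, so the size of their ratios depends on the 0.5 added. Next below miR-219a was miR-16, with a log2 ratio of 6.47 ± 0.35 (SD, n = 2). let-7a-1-3p also had fractional counts equal to those of let-7c-2-3p. A large ratio between hairpin-specific arms was thus seen in several families and was not particular to miR-219a. In the 3 families ranked above it, however, the compared arms were minor ones. Their shared arm held 161046 and 130748 counts in miR-181a, 155302 and 142036 in let-7a, and 98755 and 94938 in miR-92a. The shared arm of miR-219a held 34 and 29. Counts of a shared arm cannot be assigned to a hairpin, so whether a single hairpin led in those 3 families is not known.

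**Figure D3:**
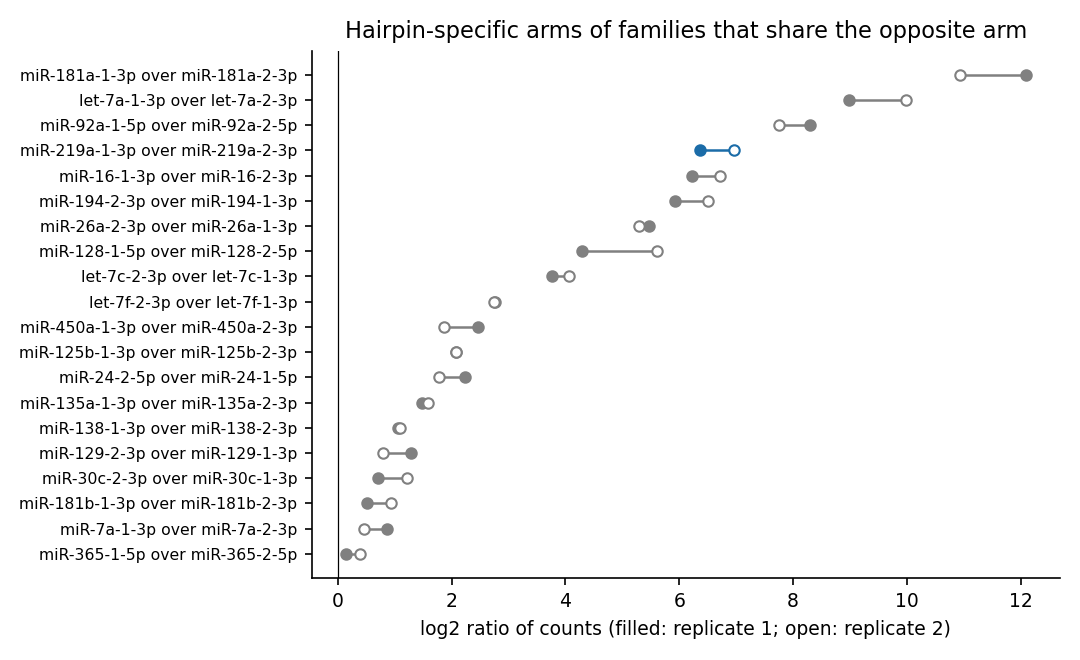
Log2 ratio of counts of the highest over the next hairpin-specific arm in 20 families that share the opposite arm, in replicate 1 (filled) and replicate 2 (open), with 0.5 added to each count. miR-219a (blue, 6.36 and 6.97) has the fourth-largest mean ratio.

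The miR-338 hairpin gave mostly its 5p arm, in the same proportion in both libraries. miR-338-5p held 91.0% of the counts of the hairpin in replicate 1 (exact 95% interval 88.2% to 93.4%) and 91.1% in replicate 2 (87.3% to 94.0%). The ratio of miR-338-5p over miR-338-3p was 10.1-fold in each library (log2 ratio 3.33 ± 0.00017, SD, n = 2), and since this SD is smaller than counting error it is not the precision of the ratio. A 5p arm at least 4-fold higher in both libraries was found in 126 of 312 hairpins (40.4%), and a 3p arm in 115 (36.9%), counting hairpins whose arms are both listed under the same name and sum to 10 or more counts in every library. Of the 312, 100 had a mean ratio of 5p over 3p at or above that of miR-338, miR-338 included, and 52 had a ratio of 3p over 5p at or above that of miR-219a-1. The ratio of miR-219a-1 is a lower limit, so 52 is an upper limit for the ratio within that hairpin. The arm preference of miR-338 was thus of a common size, as was that of miR-219a-1 by its ratio to the shared 5p arm. What set both apart for selection was which arm led.

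**Figure D4:**
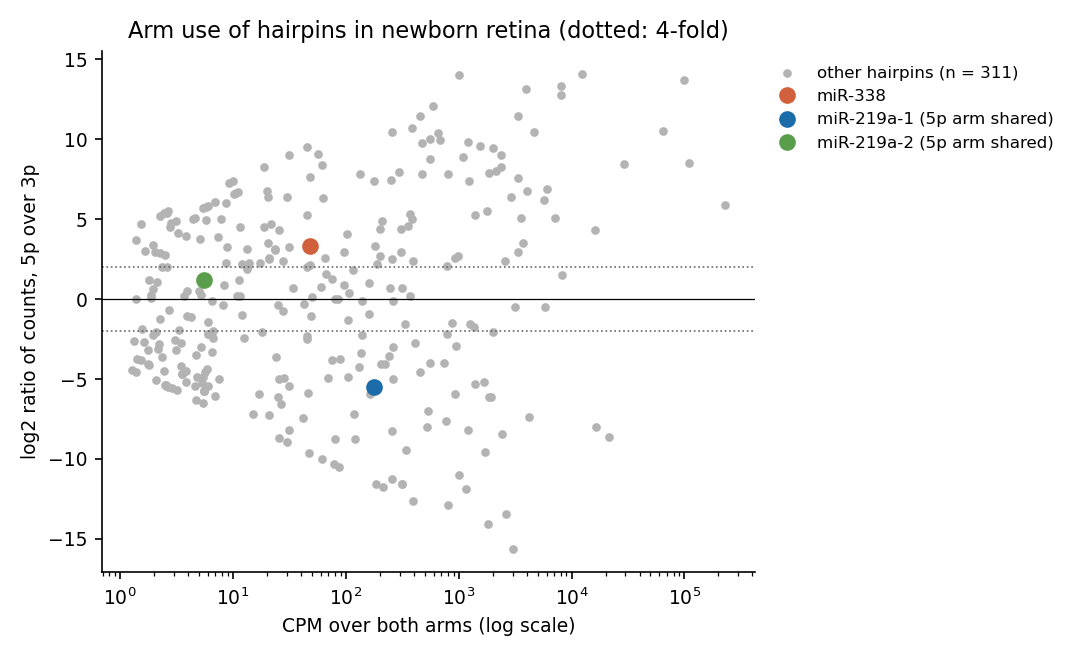
Mean log2 ratio of 5p over 3p counts (vertical axis) by CPM over both arms (log axis) for 311 other hairpins (grey), miR-338 (orange), miR-219a-1 and miR-219a-2 (blue and green, each against the shared 5p arm); short coloured lines, where they exceed the point, span the 2 libraries. miR-338 at 3.33 and miR-219a-1 at -5.50 lie inside the cloud of other hairpins.

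The hairpins nearest to miR-338 in arm ratio, among 88 within 4-fold of its CPM, were miR-425 (log2 ratio of 5p over 3p 3.30 ± 0.19), miR-431 (3.24 ± 0.18) and miR-574 (3.51 ± 0.65; SD, n = 2 each). Those nearest to miR-219a-1, among 94, were miR-299a (-5.86 ± 0.44), miR-23b (-5.93 ± 0.17) and miR-323 (-5.02 ± 0.17).

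The leading arms, miR-219a-1-3p and miR-338-5p, shared features at their 5′ ends that the choice did not name. The choice did use which arm led, so setting these hairpins among classes of higher and lower arms is a description, with no test. Both begin with A, as does miR-219a-2-3p, which was not shown to lead in its hairpin. miR-219a-5p and miR-338-3p begin with U, the base that Argonaute proteins often favour at the first position. Over 242 hairpins with both mature sequences in RefSeq, 49.2% of the higher arms and 25.6% of the lower arms began with U, and 27.3% of the higher and 30.2% of the lower arms with A. In the 55 hairpins with an A arm facing a U arm, the A arm was higher in 22, miR-338 among them, and the U arm in 33. An A arm leading over a U arm was thus the less frequent of these arrangements but not rare.

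Pairing at the arm ends was read from the hairpins folded with RNAfold, over the first 4 bases of each arm. In Mir338 all 4 bases of the higher 5p arm were paired, and 1 base of the 3p arm was unpaired. In Mir219a-1 likewise all 4 of the higher 3p arm were paired and 1 of the 5p arm was not. Mir219a-2 also had all 4 of the 3p arm paired and 1 of the 5p arm unpaired, but which arm was higher is not known. Every arm had 1 G-C pair there, so the arms did not differ in G-C pairs. Of 178 hairpins dominated by an arm, the higher arm had fewer unpaired bases at its 5′ end in 35 (19.7%), more in 74 (41.6%) and equally many in 69 (38.8%). In the end pairing, Mir338 and Mir219a-1 therefore belonged with the least frequent of these classes. Both were chosen by which arm led, so their class is not separate from the choice.

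The most frequent reads of all 5 members started at the miRBase base in both libraries, so no seed was shifted. miR-219a-1-3p was read at its full annotated length of 22 nt. miR-338-5p and miR-338-3p were both read at 21 nt, 1 base short of their annotated 22 nt, and miR-219a-5p at 23 nt. For these 4 members the read was identical in the libraries. miR-219a-2-3p, with the fewest counts, was read at 22 nt in replicate 1 and 21 nt in replicate 2. Over all miRNAs detected in both libraries the most frequent read was the same in 614 of 924 (66.5%), and in 454 with an unshifted start and a RefSeq sequence 13.7% were 1 base short.

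Antisense and paralogous miRNAs of the same loci had few counts or 0, and miR-219c-5p was not far below the member miR-219a-2-3p. miR-219c-5p, which comes from the strand opposite Mir219a-1 and overlaps miR-219a-1-3p over 20 nt, had 13 counts (1.56 CPM) in replicate 1 and 9 counts (1.11 CPM) in replicate 2. miR-219a-1-3p exceeded it by 107-fold in replicate 1 and 152-fold in replicate 2. miR-219c-3p and miR-219b-5p were at 0 in both libraries. A count of 0 leaves room for a level of 0.36 CPM in replicate 1 and of 0.37 CPM in the other library (a limit of 3 counts). miR-3065-5p, opposite miR-338-3p, had 1 count in replicate 1 and 0 in replicate 2. miR-219b-3p and miR-3065-3p were not analysed here. Among the arms analysed, the counts of Mir219a-1 and Mir338 thus came almost wholly from the strand of these hairpins. At Mir219a-2 the only arm of its own with counts was miR-219a-2-3p, with 17 and 11.

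Other miRNAs tied to oligodendrocyte differentiation were measured alongside, on a list of 5 arms. miR-138-5p, which acts early in differentiation, was at 23.3 ± 0.591 CPM. Its 3p arms were low, miR-138-1-3p at 1.21 ± 0.493 CPM and miR-138-2-3p at 0.545 ± 0.248 CPM. miR-23a-3p, which lowers lamin B1, was at 30.3 ± 0.529 CPM and miR-32-5p at 340.2 ± 5.65 CPM (SD, n = 2 each). These miRNAs are made in many cell types. The 3 arms usually described in oligodendrocytes were all detected in both libraries and none exceeded 5.28 CPM, values that the choice of the members already used.

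The libraries were then compared, a difference that played no part in choosing the members. Each of 710 miRNAs with at least 10 counts over both libraries was tested with an exact two-sided binomial test against the library totals, with Benjamini-Hochberg adjustment over all 710. The test compares these libraries and covers counting error only. Of the 5 members, 1 was called, beside 27.9% of all miRNAs tested.

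miR-338-5p was that member. It was higher in replicate 1 than in replicate 2 by 1.58-fold (log2 ratio 0.66, exact 95% interval 0.44 to 0.88, adjusted p = 1.39e-08, exact binomial test), a direction called for 19.6% of miRNAs tested. Scaled by edgeR's TMM the log2 ratio was 0.54 and by DESeq2 size factors 0.55, and the call held with both. TMM called 26.3% of all miRNAs, 11.3% as higher in replicate 1, and DESeq2 size factors called 26.6%, 12.4% as higher in replicate 1. By table totals, 36 of 116 tested miRNAs within 2-fold of its level were called (31.0%).

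miR-338-3p had nearly the same ratio but too few counts to be called. Its log2 ratio was 0.66 with an exact 95% interval of -0.06 to 1.41 (adjusted p = 0.166, exact binomial test). The arms of Mir338 thus kept their proportion while the level of the hairpin differed. In a two-sided Fisher exact test of arm counts by library over the 312 hairpins, miR-338 had an adjusted p = 1, beside 8.65% of hairpins called. With hairpins that share an arm added, a choice made after seeing the data, miR-219a-1 and miR-219a-2 also had an adjusted p = 1 in the Fisher exact test over 358 hairpins.

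The miR-219a arms gave no difference by table totals. The log2 ratio of replicate 1 over replicate 2 was -0.04 for miR-219a-1-3p (exact 95% interval -0.15 to 0.07, adjusted p = 0.68, exact binomial test). Its call depended on the scaling, since over the 710 miRNAs the log2 ratio by table totals had a median of 0.12. Relative to most miRNAs it was lower in replicate 1, with a log2 ratio of -0.16 by TMM (adjusted p = 0.0152, exact binomial test) and -0.14 by DESeq2 size factors (adjusted p = 0.0337, exact binomial test). For miR-219a-5p (0.19, -0.57 to 0.96) and miR-219a-2-3p (0.57, -0.59 to 1.83) the exact intervals were wide, so these counts do not show whether the arms differed.

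**Figure D5:**
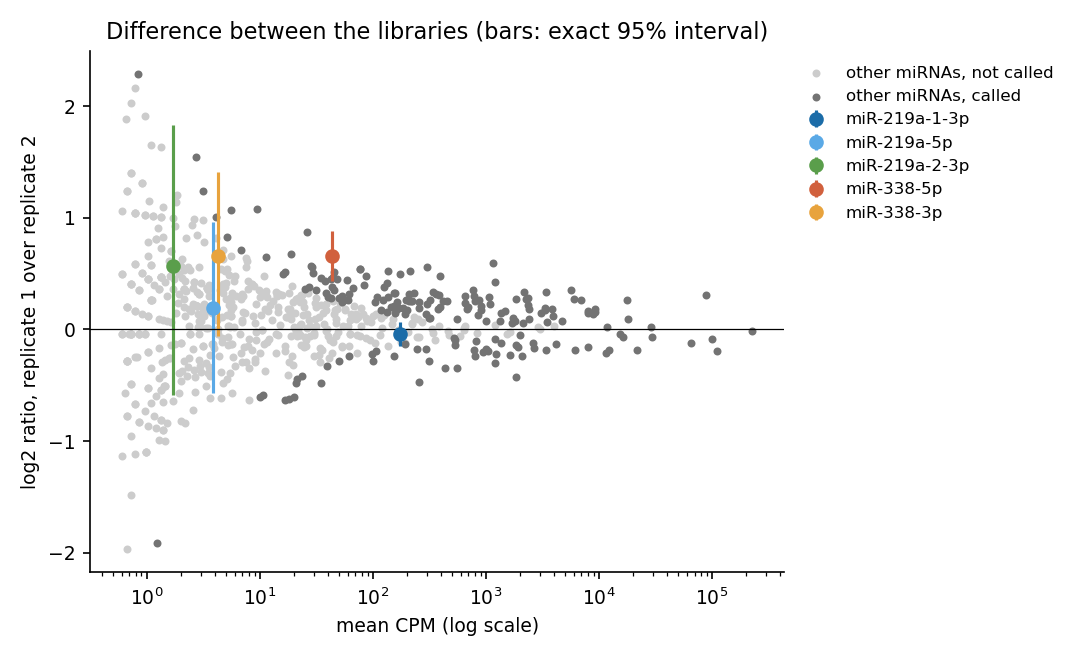
Log2 ratio of replicate 1 over replicate 2 by mean CPM (log axis) for 710 miRNAs, with called miRNAs in dark grey and the 5 members in colour with exact 95% intervals. miR-338-5p and miR-338-3p both sit at 0.66 and miR-219a-1-3p at -0.04.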

How the data were processed

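Small RNA of 18 to 30 nt from newborn retina was sequenced in 2 libraries after ligation of adapters, per the labels' protocols. Reads were written with bcl2fastq 2.17.1.14, per the submitters' processing notes; the sources used here name no aligner, counter or build. The deposited table held estimated counts, unscaled, which were rounded for tests. The authors' deposited CPM used a larger library total, so its columns summed to 88.5% of 1000000; CPM was recomputed here from the table totals. The third deposited table gave the most frequent read per miRNA and, per the file headers, its differences from miRBase release 21. Ligation yield differs between sequences and was not measured, so ratios between arms are ratios of counts, not of molecules.

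The members and lists were chosen with earlier results of these data known. Named miRNAs were the members, both related lists, miRNAs sharing a seed, neighbours by level and the 3 hairpins nearest in arm ratio. Families with hairpin-specific arms were chosen after the data were seen. Intervals and the limit for 0 counts (3 counts) cover counting error only, since reads carry no molecular identifiers. The tests were run on simulated data drawn with counting error only, which does not show how they behave under a larger spread between libraries. Mature sequences and hairpins were from RefSeq (GRCm38.p6), except miR-219a-2-3p, taken from the deposited read, and gene annotation from GENCODE M21. Software was R 4.3.3 with edgeR 4.0.16 (TMM) and DESeq2 1.42.0 (size factors), RNAfold 2.7.2, and Python 3.11.15 with SciPy 1.17.1, NumPy 2.4.6, pandas 2.3.3 and matplotlib 3.10.9.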

Additional observations from a re-analysis of the deposited data

How the results depend on the processing

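No paired analysis was possible because the series holds 1 group. No arm ratio or log2 ratio between libraries of a member changed sign under the alternatives run. With the authors' deposited CPM, miR-219a-1-3p was at 155.1 and miR-219a-5p at 3.40, lower by the same factor as every other miRNA. With 5 added to each count in place of 0.5, the log2 ratio of miR-219a-1-3p over miR-219a-5p was 5.31 and that of miR-338-5p over miR-338-3p was 3.17; with 1 added, miR-338-5p over miR-338-3p was 3.31. At least 100 counts per hairpin left 70 dominated by the 3p arm in place of 115, with fewer hairpins compared. The same setting left 90 dominated by the 5p arm in place of 126. The balance of calls between libraries did turn with the scaling: 139 of 198 called miRNAs were higher in replicate 1 by table totals, 80 of 187 by TMM and 88 of 189 by DESeq2 size factors. Single libraries gave 173 and 178 CPM for miR-219a-1-3p, 53.6 and 34.0 CPM for miR-338-5p, and log2 ratios of 5.38 and 5.61 for miR-219a-1-3p over miR-219a-5p. The comparison between libraries could not be made without either of them. Depth limits the low arms most, since miR-219a-2-3p had 17 and 11 counts.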
